A study of Sus scrofa with 220 samples.

Results

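PDGFRA, KIT and EPHA2 are receptor tyrosine kinases, and their transcripts were followed here through the first lineages of the pig embryo. The 3 genes were the rows of the deposited tables whose Ensembl pig identifiers carry these symbols (ENSSSCG00000008841 for PDGFRA, ENSSSCG00000008842 for KIT and ENSSSCG00000003471 for EPHA2), out of 22840 gene entries. On the RefSeq assembly Sscrofa11.1, PDGFRA and KIT are direct neighbours, with GSX2 before PDGFRA and KDR after KIT, while EPHA2 lies between FAM131C and ARHGEF19. The files use the older assembly Sus scrofa v10.2, so no positions are given.

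A receptor tyrosine kinase is a membrane protein that binds a ligand outside the cell and passes the signal inside by phosphorylating tyrosines, mostly through the RAS-ERK and PI3K-AKT chains. PDGFRA is the receptor for platelet-derived growth factors and is widely used as a marker of primitive endoderm, the lineage called hypoblast in the pig. KIT is the receptor for stem cell factor and is best known from germ cells, melanocytes and blood progenitors. EPHA2 is an EPH receptor, whose ephrin-A ligands are held on the membrane of the neighbouring cell, and it is known from epithelial and early embryonic cells.

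The study profiled 220 single cells from 28 pig embryos by Smart-seq2, a full-length cDNA method without molecular identifiers. Embryos were flushed from crossbred Large White and Landrace sows after artificial insemination, without treatment or genetic change. The labels give 7 cell types: morula (M, 47 cells of 8 embryos and 1 cell of no stated embryo among them), inner cell mass (ICM, 24 cells, 7 embryos) and trophectoderm (TE, 28 cells, 10 embryos) of early blastocysts, epiblast (EPI, 25 cells, 4 embryos) and hypoblast (HYPO, 36 cells, 5 embryos) of late blastocysts (LB), and EPI (48 cells, 4 embryos) and HYPO (12 cells, 3 embryos) of spherical embryos (Sph). The identifier of the M cell without embryo carries the letters of late blastocyst embryo AO, against its label. It was assigned to no embryo and stayed in the counts and medians of M cells. Early blastocysts were dissociated whole, the trophectoderm of late blastocysts was removed by immunosurgery, and EPI and HYPO of spherical embryos were separated by hand. In blastocysts the lineage of a cell was therefore read from its transcriptome, in which PDGFRA, KIT and EPHA2 were included. Every comparison below that uses ICM, TE, LB EPI or LB HYPO is thus not independent of the labels, ICM against TE and LB EPI against LB HYPO most directly. Their p-values describe the labelled groups. Spherical cells were part of the paper's clustering too, so their labels may share this in part. The paper read lineages with known markers and lists PDGFRA among the genes detected in HYPO. Its text does not make clear whether PDGFRA was used to assign the labels. The separation of HYPO from EPI by PDGFRA may therefore be partly built in.

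Each cell had 1012604 to 5696373 gene counts, with a median of 2006854. Counts were summed per embryo and lineage into 41 sums, since cells of 1 embryo are not replicates. Levels are given as TPM (transcript abundance scaled for gene length and library size) averaged over the cells of an embryo, or as log2(CPM + 1), with CPM the counts of a sum scaled to a total of 1000000. The summed CPM of 9 hypoblast markers was 5733 to 14995 in LB HYPO and 6825 to 17087 in Sph HYPO, against 87.9 to 473 in LB EPI and 269 to 308 in Sph EPI. Of the 10 TE sums, 1 went against its label: the single TE cell of embryo E6-ER had 225 CPM over 8 trophectoderm markers, with 6 of them at 0, against 18289 to 58821 CPM in the other 9. It also had the highest summed CPM of 5 morula and ICM markers (849 CPM, against 232 to 631 CPM), though 2 of the 5 were at 0. PDGFRA was the receptor whose TE level this cell changed most, and its TE values are given with and without it. Without it 1, 4 and 2 of 27 TE cells were positive for PDGFRA, KIT and EPHA2 (TPM over 1), the TE means of KIT and EPHA2 on the log2(CPM + 1) scale were 1.72 ± 2.14 and 0.71 ± 1.72 (SD, n = 9 embryos), and ICM over TE gave log2 fold changes of 5.40 for KIT and 4.76 for EPHA2. The same trophectoderm markers also reached 18373 to 50177 CPM in Sph HYPO.

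The receptors differed in how widely they were detected. A cell was counted as positive above a TPM of 1. KIT was positive in 68.8% to 91.7% of cells in every cell type but TE, where 5 of 28 cells were positive (17.9%, 95% exact binomial interval 6.06 to 36.9). PDGFRA was positive in 19 of 24 ICM cells, 29 of 36 LB HYPO cells and 10 of 12 Sph HYPO cells, but in 4 of 25 LB EPI cells and 1 of 48 Sph EPI cells. EPHA2 was positive in 18 of 24 ICM cells and in 0 of 47 M cells (95% exact binomial interval up to 7.55%). These intervals and limits cover counting error only.

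**Figure D1:**
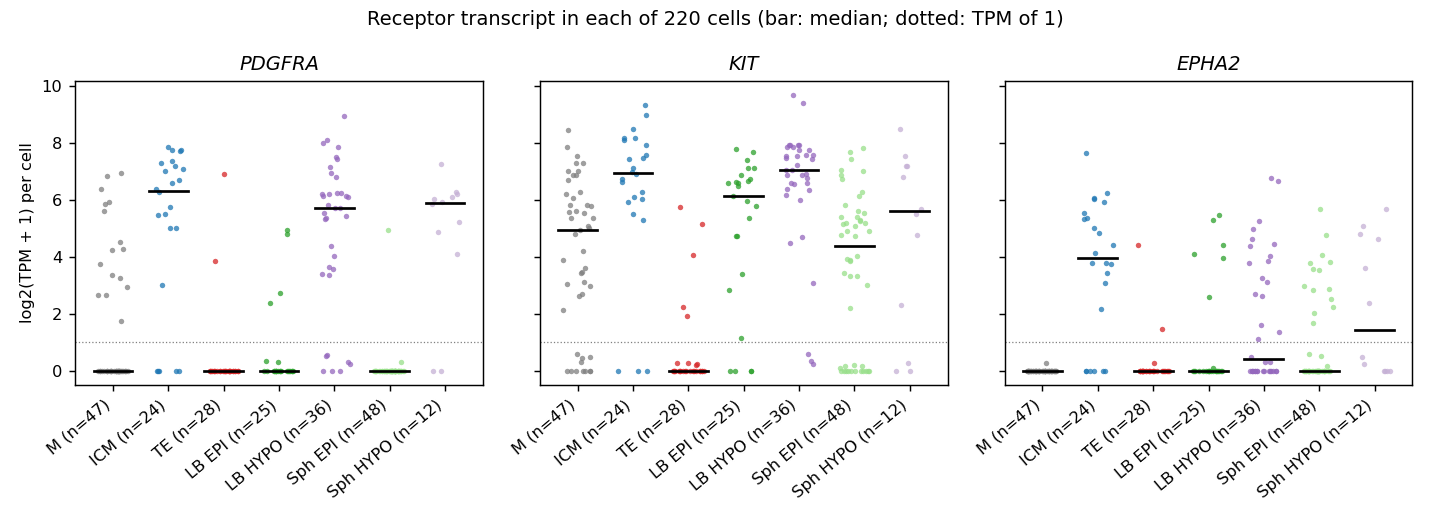
Level of PDGFRA, KIT and EPHA2 in each cell, as log2(TPM + 1) on the vertical axis, by cell type. Points are cells, bars are medians and the dotted line is a TPM of 1; the median PDGFRA level of Sph EPI cells is 0 TPM and that of Sph HYPO cells is 58.1 TPM, while no M cell reaches the line for EPHA2.

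In M, 16 of 47 cells were positive for PDGFRA and 36 of 47 for KIT. In TE, PDGFRA and EPHA2 were positive in 2 of 28 cells each. EPHA2 was positive in 6 of 25 LB EPI, 17 of 36 LB HYPO, 14 of 48 Sph EPI and 6 of 12 Sph HYPO cells. Thinning every cell to 1000000 counts and counting any read gave between 0 and 4 more positive cells per group and gene.

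Between genes, KIT had the highest median TPM per cell in 5 of the 7 cell types. The median ICM cell held 121 TPM of KIT, 78.6 TPM of PDGFRA and 14.6 TPM of EPHA2. In LB HYPO the medians were 131, 51.1 and 0.324 TPM in the same order. Sph HYPO differed, with 58.1 TPM of PDGFRA and 47.3 TPM of KIT, and TE had a median of 0 for all 3 genes.

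Each cell of ICM and of both HYPO groups was positive for at least 1 of the receptors. All 3 receptors were positive together in 11 of 24 ICM cells, 12 of 36 LB HYPO cells and 4 of 12 Sph HYPO cells, but in 1 of 25 LB EPI cells, 1 of 48 Sph EPI cells and in no M or TE cell. The hypoblast of late blastocysts was mainly made of cells positive for PDGFRA and KIT alone (16 of 36) or for all 3. In the epiblast the commonest state was KIT alone, in 13 of 25 LB and 24 of 48 Sph cells, and the same state was the commonest in M (25 of 47). In TE, 21 of 28 cells were positive for none.

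**Figure D2:**
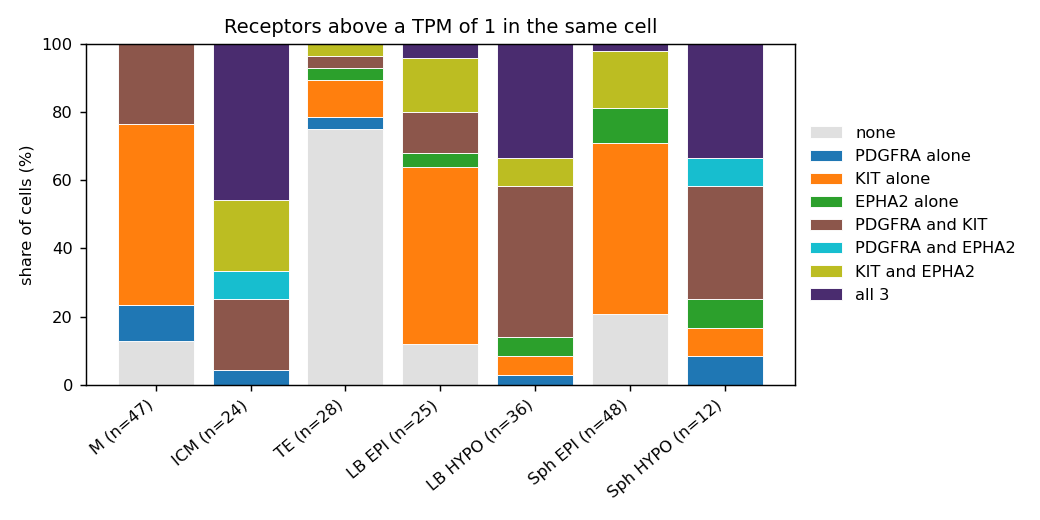
Share of cells (vertical axis, %) of each cell type with the given combination of receptors above a TPM of 1; each bar adds up to all cells of the type. KIT alone fills 50.0% of Sph EPI, all 3 receptors fill 45.8% of ICM, and none fills most of TE (21 of 28 cells).

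PDGFRA transcript was high in ICM and in HYPO of both stages, and near 0 in most sums of TE and EPI. In ICM the mean TPM per embryo had its lowest value of 0 in embryo AD, which gave 1 cell, a median of 91.3 and its highest value of 119 in embryo AC. In TE it was 0 in 8 of 10 embryos, 4.48 in embryo AC and 118 in the atypical cell of E6-ER. The groups overlapped through AD and E6-ER alone: the other 6 ICM embryos lay at 37.1 or above, and the other 9 TE embryos at 4.48 or below.

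In late blastocysts the mean TPM of PDGFRA in HYPO was 491 in embryo AL (1 cell), 89.2 in AM, 23.5 in AN, 52.3 in AO and 112 in AP. In LB EPI it was 0 in AN, 11.4 in AO, 0.0312 in AP and 0.995 in AQ. Every HYPO sum was above every EPI sum, and the EPI of embryo AO stood apart from the rest of its group. Embryo AO also had the highest summed hypoblast markers of the LB EPI sums (473 CPM, against 87.9 to 218 in the other 3) and the lowest summed epiblast markers (778 CPM, against 1391 to 3119). Of the 388 PDGFRA counts in this EPI sum, 387 came from 2 of its 5 cells. The part of these markers in the PDGFRA values was not tested.

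In spherical embryos PDGFRA was at 0 TPM in the EPI of embryos C, E and F and at 2.69 TPM in D. In Sph HYPO it was 66.6 TPM in C, 34 TPM in E and 53.2 TPM in F. The HYPO values lay close together and far above all EPI values, with 123 of the 124 EPI counts found in 1 cell of embryo D. In M the mean TPM ran from 0 in embryo Y over a median of 7.53 to 41.5 in X, a range between that of EPI and that of ICM.

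On the log2(CPM + 1) scale the order of the group means of PDGFRA was LB HYPO (7.53 ± 1.57, SD, n = 5 embryos), Sph HYPO (6.73 ± 0.43, n = 3), ICM (6.34 ± 2.87, n = 7), M (3.54 ± 2.14, n = 8), LB EPI (1.75 ± 2.38, n = 4), TE (1.05 ± 2.43, n = 10) and Sph EPI (0.66 ± 1.31, n = 4). No neighbours in this order differed by more than the larger of their SDs. Without E6-ER the TE mean was 0.35 ± 1.06 (n = 9), below that of Sph EPI. Without AD the ICM mean was 7.39 ± 0.69 (n = 6), which then stood above Sph HYPO.

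**Figure D3:**
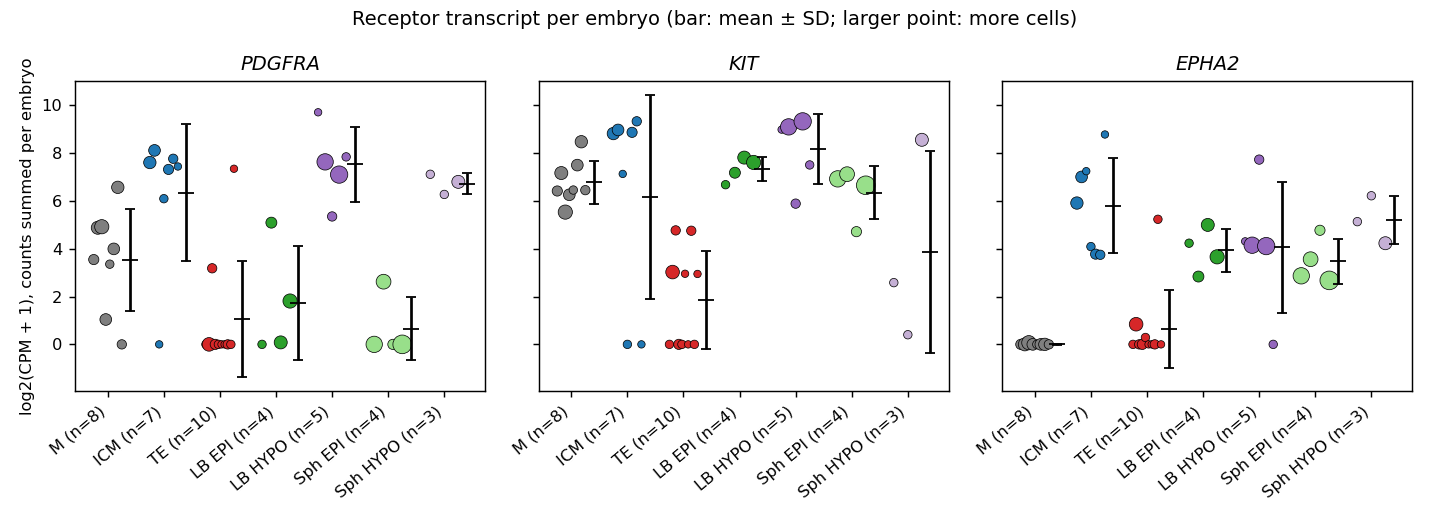
Level of each receptor per embryo, as log2(CPM + 1) of the counts summed over the embryo's cells of a lineage (vertical axis), by cell type. Points are embryos, sized by their number of cells, and bars are the mean ± SD; PDGFRA separates HYPO from EPI at both stages, the KIT level of Sph HYPO is split between embryo F (8.56) and the other 2 (2.58 and 0.40), and EPHA2 is at or near 0 in all 8 M embryos.

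The difference in PDGFRA between lineages was large at each stage but varied between embryos. ICM exceeded TE by a log2 fold change of 3.19 (SE 1.69, adjusted p = 0.351 from edgeR). Without the TE cell of E6-ER the log2 fold change was 7.33 and passed the threshold of 0.05 (adjusted p = 0.0252 from edgeR). This cell held 749 of the 797 TE counts of PDGFRA, so the fit without it is no separate support. Sums of at least 2 cells, which leave out this cell and other single cells, gave 7.26 (adjusted p = 0.0602 from edgeR). Blocking by embryo, which compares both lineages of the same embryos, gave 10.48 (adjusted p = 0.0143 from edgeR). ICM was higher in 6 of the 7 embryos with both lineages, by a median of 7.32 on the log2(CPM + 1) scale, and both were at 0 in AD.

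PDGFRA was lower in LB EPI than in LB HYPO by a log2 fold change of -5.03 (SE 1.60, adjusted p = 0.162 from edgeR). Of 9 fits without 1 sum, only that without the EPI of AO passed the threshold (log2 fold change -8.31, adjusted p = 0.0184 from edgeR). AO had the highest PDGFRA of LB EPI, so this fit is no separate support. DESeq2 (adjusted p = 0.0150) and limma on embryo means (adjusted p = 0.0436) called the difference with all embryos. In spherical embryos the log2 fold change was -6.35 (SE 2.24, adjusted p = 0.235 from edgeR), against a median of 0.57 over all genes tested. Of 7 fits without 1 sum, only that without EPI embryo D passed the threshold (adjusted p = 0.0127 from edgeR). Every EPI sum was then at 0, since D held all EPI counts, so this fit is no separate support. With all embryos, limma called the difference (adjusted p = 0.0425). Summed over all embryos, Sph HYPO had 98.9 CPM and Sph EPI 1.05 CPM, nearly all of the latter from the 1 cell of D.

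The PDGFRA levels of EPI and HYPO did not overlap at either stage, as was so for 8.59% of the 14721 genes tested in LB and 15.2% in Sph embryos. HYPO was higher in 3 of 3 LB and 3 of 3 Sph embryos that gave both lineages. The difference between EPI and HYPO was not shown to change from LB to Sph (interaction log2 1.38, SE 2.36, adjusted p = 1.0 from edgeR). LB HYPO and Sph HYPO differed by 1.38 (SE 0.81, adjusted p = 0.519 from edgeR; 0.39 on the log2 scale without AL), and ICM and LB HYPO by -0.91 (SE 0.91, adjusted p = 0.703 from edgeR). ICM exceeded LB EPI by 4.05 (SE 1.71, adjusted p = 0.179 from edgeR), and by 7.36 without EPI of AO.

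The log2 fold change of PDGFRA in M was -2.80 against ICM (SE 1.06, adjusted p = 0.124 from edgeR), a difference that limma on embryo means called (-3.32, adjusted p = 0.0383). Against TE it was 0.46 (SE 1.69, adjusted p = 1.0 from edgeR), and 4.65 without the cell of E6-ER. LB EPI over Sph EPI gave 2.85 (SE 2.70, adjusted p = 0.75 from edgeR), which turned to -0.54 without EPI of AO.

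KIT transcript was found in M, ICM and EPI and HYPO of late blastocysts, and was low in TE. In M the mean TPM per embryo ran from 13.8 in embryo T over a median of 49.0 to 126 in X. In TE it ran from 0 in 5 of 10 embryos over a median of 0.891 to 17.7 in AC. No M sum overlapped with a TE sum on the log2(CPM + 1) scale (lowest M 5.54, highest TE 4.77), as was so for 0.394% of the genes tested. The log2 fold change between M and TE was 4.17 (SE 1.16, adjusted p = 0.0749 from edgeR). DESeq2 (adjusted p = 0.0112), limma (adjusted p = 0.00225) and edgeR with all 7 lineages in one model (adjusted p = 0.0299) called it.

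KIT divided the ICM by embryo. In ICM its mean TPM was 0 in embryos AE and AI, had a median of 154 and reached 247 in AF. All 21 cells of the other 5 embryos were positive, while the 2 cells of AE and the 1 cell of AI had no KIT count. The same 3 cells all had PDGFRA, at a mean of 37.1 TPM in AE and at 102 TPM in AI. EPHA2 was at 12.3 TPM in 1 cell of AE and at 0 in the other, and AI held 200 TPM, the highest EPHA2 value of any embryo. ICM and TE therefore overlapped at 0, and 5 of 7 embryos had more KIT in ICM than in TE with the other 2 at 0 in both. The log2 fold change was 5.40 (SE 1.5, adjusted p = 0.0971 from edgeR), with adjusted p from 0.0711 to 0.135 when 1 sum at a time was left out. DESeq2 (adjusted p = 0.0445) and edgeR with all 7 lineages in one model (adjusted p = 0.00762) called it.

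Epiblast and hypoblast both carried KIT. In LB EPI the mean TPM was 43.9 in AN, 62.6 in AO, 82.3 in AP and 78.9 in AQ. On the log2(CPM + 1) scale this group had the smallest SD for KIT. In LB HYPO it was 227 in AL, 184 in AM, 25.9 in AN, 181 in AO and 65.1 in AP. In 3 embryos (AL, AM and AO) the HYPO sums lay above all EPI sums, and in the other 2 they lay within or below them. HYPO was nominally higher (log2 fold change of EPI over HYPO -1.26, SE 0.59, adjusted p = 0.249 from edgeR), but within the same embryo EPI was higher in AN and AP and HYPO in AO.

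In Sph EPI the mean TPM of KIT was 40.3 in C, 45.5 in D, 13.9 in E and 39.4 in F. In Sph HYPO it was 1.96 in C, 0.110 in E and 133 in F. Embryo F gave 8 of the 12 Sph HYPO cells and all 8 were positive, against 1 of the 4 cells of C and E. Sph HYPO of F had the lowest summed hypoblast markers of the 3 (6825 CPM, against 17087 in C and 14200.5 in E) and the highest summed trophectoderm markers (50177 CPM, against 30506 in C and 18373 in E). The part of these in the KIT value was not tested.

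All comparisons of KIT in Sph HYPO therefore depended on embryo F. The log2 fold change of Sph EPI over Sph HYPO was -0.40 (SE 1.47, adjusted p = 0.966 from edgeR). It was 5.17 without F (adjusted p = 0.0880 from edgeR) and 3.55 with the embryo as a block (adjusted p = 0.727 from edgeR). LB HYPO exceeded Sph HYPO by 1.52 (SE 1.32, adjusted p = 0.735 from edgeR), and by 7.04 without F (adjusted p = 0.0378 from edgeR). The interaction was -0.78 (SE 1.59, adjusted p = 1.0 from edgeR) with F and -6.34 without it (adjusted p = 0.0286 from edgeR). Embryo F was singled out by its KIT level, so the fits without it are no separate support.

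The group means of KIT on the log2(CPM + 1) scale were 8.17 ± 1.46 in LB HYPO, 7.33 ± 0.50 in LB EPI, 6.79 ± 0.90 in M, 6.36 ± 1.11 in Sph EPI, 6.16 ± 4.27 in ICM, 3.85 ± 4.22 in Sph HYPO and 1.85 ± 2.05 in TE (SD, embryos as above). No neighbours in this order differed by more than the larger of their SDs. M and ICM differed by a log2 fold change of -1.32 (SE 0.96, adjusted p = 0.490 from edgeR). LB EPI exceeded Sph EPI by 0.87 (SE 0.50, adjusted p = 0.480 from edgeR). ICM differed from LB EPI by 0.87 (SE 1.30, adjusted p = 0.841 from edgeR) and from LB HYPO by -0.30 (SE 1.16, adjusted p = 1.0 from edgeR).

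**Figure D4:**
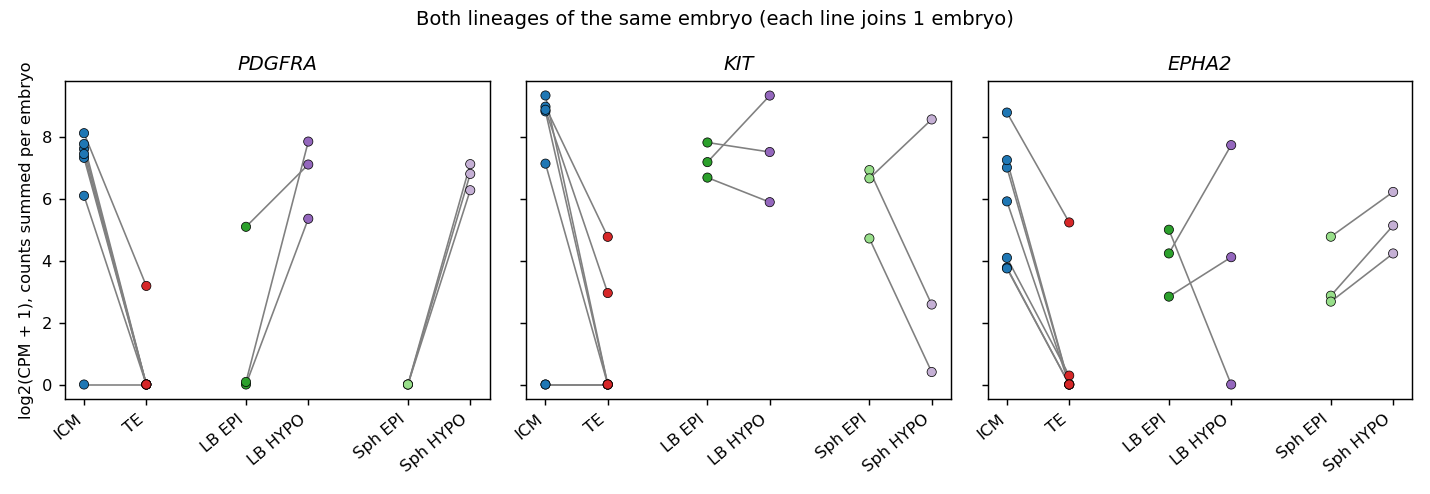
Level of each receptor, as log2(CPM + 1), in both lineages of the same embryo (7 early blastocysts, 3 late blastocysts and 3 spherical embryos); each line joins the 2 lineages of 1 embryo. The PDGFRA lines rise from EPI to HYPO in all 6 embryos, the KIT lines cross, and the EPHA2 lines fall from ICM to TE in all 7.

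EPHA2 transcript was barely detected in M and was present in every ICM embryo. The M cells with a stated embryo held 1 EPHA2 count in all, in embryo T, and 7 of 8 M sums were at 0. In ICM the mean TPM ran from 3.29 in embryo AF over a median of 19.9 to 200 in AI. The groups did not overlap, as was so for 1.66% of the genes tested. Summed over embryos, EPHA2 stood at 0.00966 CPM in M and 75.1 CPM in ICM, a ratio of 7777 with a 95% counting interval from 1395 to 307200 that reflects the single M count.

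EPHA2 between M and ICM was the single call of edgeR among the 30 tests of the receptors (log2 fold change -12.47, SE 1.21, adjusted p = 6.55e-06). The size of this fold change depends on the prior count of the model. With limma on embryo means, which averages log2(TPM + 1) over cells and is another measure, the difference was -4.01. The call held in all 10 alternatives and with each of 15 sums left out, where the highest adjusted p was 0.0132 in limma. In this comparison edgeR called 2.45% of all genes tested, and limma also called PDGFRA.

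In TE, EPHA2 was at 0 TPM in 7 of 10 embryos, at 0.104 in AE, 0.198 in AB and 10 in AI. Within the same embryo ICM was higher in 7 of 7, by 3.55 to 7.25 on the log2(CPM + 1) scale. The log2 fold change of ICM over TE was 4.91 (SE 1.60, adjusted p = 0.113 from edgeR). It was 9.54 without the TE of AI (adjusted p = 0.00185 from edgeR) and 9.00 with the embryo as a block (adjusted p = 0.0490 from edgeR). AI held most EPHA2 counts of TE, so the fit without it is no separate support. Between M and TE the log2 fold change was -7.46 (SE 2.19, adjusted p = 0.0853 from edgeR), but 196 of the 211 TE counts came from AI. It was -2.69 without AI, -0.96 in libraries of the first 4 codes in the library titles and -0.25 with limma on embryo means.

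EPHA2 was also detected in the later lineages, where it varied between embryos. In LB EPI the mean TPM was 8.06 in AN, 2.89 in AO, 8.53 in AP and 3.78 in AQ. In LB HYPO it was 8.53 in AL, 4.76 in AM, 78.8 in AN, 6.24 in AO and 0 in AP. Apart from AN and AP, both lineages covered the same range. In Sph EPI the values were 2.73 in C, 6.02 in D, 9.20 in E and 1.61 in F, and in Sph HYPO 13.5 in C, 28.2 in E and 8.29 in F.

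HYPO was higher in 3 of 3 Sph embryos and 2 of 3 LB embryos, and the groups overlapped at both stages. The log2 fold change of EPI over HYPO was -1.71 in LB (SE 1.43, adjusted p = 0.598 from edgeR) and 0.33 without HYPO of AN. It was -1.72 in Sph (SE 1.17, adjusted p = 0.482 from edgeR). ICM exceeded LB EPI by 2.80 (SE 1.09, adjusted p = 0.161 from edgeR), which DESeq2 called (adjusted p = 0.0410), and LB HYPO by 1.16 (SE 1.22, adjusted p = 0.730 from edgeR). Without ICM of AI these values were 1.82 and 0.25, and without HYPO of AN the latter was 3.21. Between stages the log2 fold change was 0.48 in EPI (SE 1.04, adjusted p = 0.95 from edgeR) and 0.33 in HYPO (SE 1.55, adjusted p = 1.0 from edgeR).

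In order of level, the group means of EPHA2 on the log2(CPM + 1) scale were 5.80 ± 1.99 in ICM, 5.20 ± 0.99 in Sph HYPO, 4.06 ± 2.74 in LB HYPO, 3.93 ± 0.91 in LB EPI, 3.47 ± 0.95 in Sph EPI, 0.64 ± 1.64 in TE and 0.01 ± 0.02 in M. Sph EPI and TE were the neighbours that differed by more than the larger SD (2.83 against 1.64), and their ranges still overlapped through the TE of AI.

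**Figure D5:**
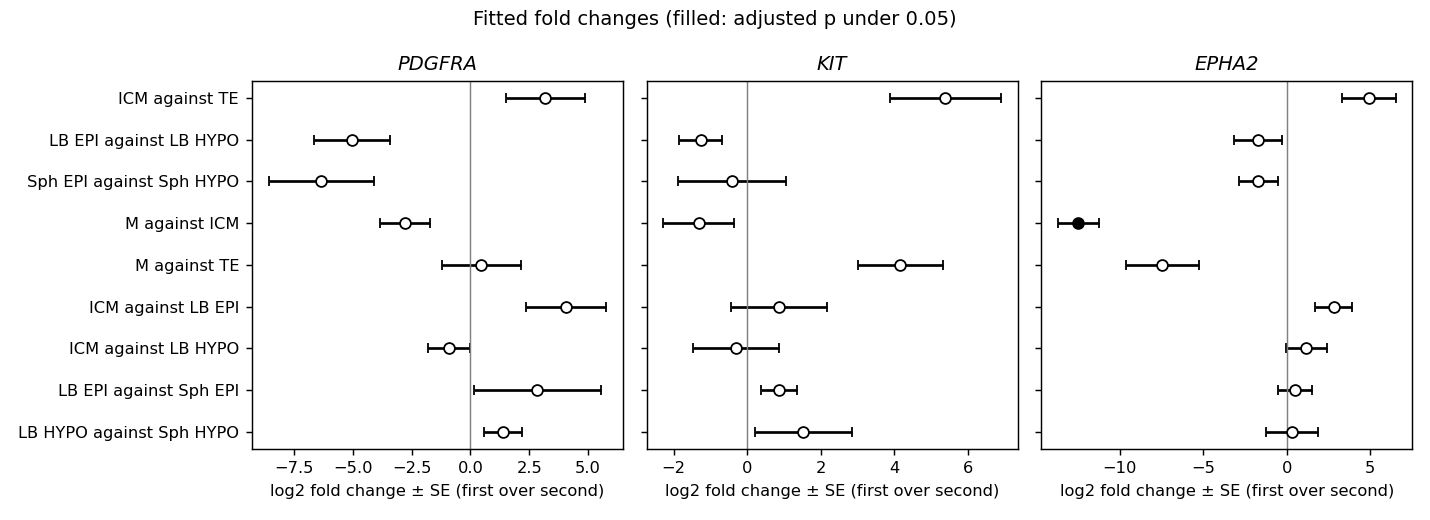
Log2 fold change ± SE (horizontal axis, first group over second) of each receptor in 9 comparisons of embryo sums in edgeR. The filled point is the call at an adjusted p of 0.05 (EPHA2, M against ICM, -12.47); the other points are open.

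Calls of the receptors were set beside the share of all 14721 genes that met the same rule, with genes lacking an adjusted p counted as not called. For ICM against TE, edgeR called 0 of 3 receptors (0.754% of all genes), 2 had an unadjusted p under 0.05 (18.9%), DESeq2 called 1 (3.04%) and limma 1 (1.54%). For LB EPI against LB HYPO edgeR called 0 (1.92%), 1 passed unadjusted (20%), DESeq2 called 1 (9.34%) and limma 1 (4.73%). Between the Sph lineages edgeR called 0 (1.13%), 1 passed unadjusted (15.2%), DESeq2 called 0 (9.94%) and limma 1 (2.49%). Between M and ICM edgeR called 1 (2.45%), 2 passed unadjusted (23.4%), DESeq2 called 1 (8.19%) and limma 2 (4.52%).

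M against TE gave 0 by edgeR (0.808%), 2 unadjusted (20.9%), 1 by DESeq2 (4.11%) and 1 by limma (2.55%). ICM against LB EPI gave 0 by edgeR (2.91%), 2 unadjusted (22.6%), 1 by DESeq2 (9.39%) and 0 by limma (6.58%). In the other 4 tests no receptor was called by edgeR, DESeq2 or limma, nor passed unadjusted. The shares of all genes, in the order edgeR, unadjusted, DESeq2 and limma, were 2.1%, 22.5%, 7.53% and 4.14% for ICM against LB HYPO and 0.156%, 13.6%, 5.72% and 0.659% for the EPI pair. They were 0.163%, 9.52%, 2.32% and 0.163% for the HYPO pair, and 0.0408%, 10.8%, 3.67% and 1.16% for the interaction.

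Pools named in the titles held cells of all groups or nearly all, so the receptors could be compared within them. In the first 4 of 8 pools ICM exceeded TE by a log2 fold change of 12.31 for PDGFRA, 8.69 for KIT and 10.56 for EPHA2. In the last 4 pools the same values were 2.59, 3.92 and 3.11. The direction was shared and the size differed, and the cell of E6-ER was in the second set.

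Of the ligands and partners of these receptors, 6 could be matched and KITLG, the stem cell factor gene, was not analysed here. PDGFA, a ligand of PDGFRA, was called by edgeR in no comparison. Its mean level on the log2(CPM + 1) scale was 4.49 ± 1.22 in Sph EPI, 3.96 ± 0.89 in LB EPI, 3.72 ± 1.16 in M, 2.93 ± 1.96 in TE, 2.67 ± 1.55 in LB HYPO, 0.87 ± 1.07 in ICM and 0.69 ± 1.20 in Sph HYPO. PDGFC, a second ligand, was highest in M (5.89 ± 0.77) and had no count in Sph HYPO. PDGFRB, the second PDGF receptor, and PDGFD had 8 counts each in the whole set, in Sph EPI.

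EFNA1, a membrane-held ligand of EPHA2, was high in M (7.15 ± 0.81), ICM (7.11 ± 0.85), LB HYPO (7.07 ± 1.44) and Sph HYPO (8.21 ± 1.74), and low in TE (1.45 ± 2.55) and LB EPI (2.35 ± 2.85). M thus held EFNA1 with 1 count of EPHA2, and ICM and both HYPO groups held both. The log2 fold change of EFNA1 was 3.37 for ICM over TE (SE 1.45, adjusted p = 0.177 from edgeR, and 10.36 with adjusted p = 0.0238 when blocked by embryo) and -3.65 for Sph EPI over Sph HYPO (SE 0.91, adjusted p = 0.0964 from edgeR). EFNA3 stayed below 2 in every group mean.

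Beyond the partners, 82 genes of receptor signalling (other receptors, adaptors, the RAS-ERK and PI3K-AKT chains, inhibitors and immediate target genes, partners included) were tested. edgeR called 0 to 3 of them per comparison, beside 0.0408% to 2.91% of all genes. Between ICM and TE the calls were ROR1, an orphan receptor, higher in ICM (log2 fold change 10.48, SE 2.04, adjusted p = 0.0383) and NTRK3, a neurotrophin receptor, higher in TE (-12.07, SE 2.11, adjusted p = 0.0128). The ROR1 call was lost in 14 of 17 fits without 1 sum (adjusted p up to 0.0773 from edgeR) and when blocked by embryo (adjusted p = 0.393 from edgeR). NTRK3 kept its call in all 17 but not when blocked by embryo (adjusted p = 0.0737 from edgeR). ERBB2, a receptor of the EGF family, was higher in LB EPI than LB HYPO (5.11, SE 0.99, adjusted p = 0.0184 from edgeR; 0.182 when blocked by embryo), a call lost in 2 of 9 fits without 1 sum. ERBB4, of the same family, was higher in ICM than in LB EPI (12.81, SE 1.64, adjusted p = 0.00118 from edgeR) and LB HYPO (11.74, SE 1.40, adjusted p = 0.000125 from edgeR).

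The EPH receptor EPHB4 was also called higher in ICM than in M (log2 fold change -7.19, SE 1.77, adjusted p = 0.0354 from edgeR), as was the kinase FYN (-6.99, SE 1.75, adjusted p = 0.0387 from edgeR). The EPH family did not share this direction. Of 9 other EPH receptors and ephrin-B ligands tested, EPHB4 included, 5 were nominally higher in M (median log2 fold change 1.48). Unlike that of EPHA2, the call of EPHB4 was lost in 10 of 15 fits without 1 sum, and that of FYN in 12 of 15. With limma on embryo means EPHB4 differed by -0.90 (adjusted p = 0.0545). EPHB4 had its highest group means in Sph EPI (4.76 ± 0.35) and LB EPI (4.20 ± 1.77). Of 7 immediate target genes of ERK signalling, edgeR called 1 between M and ICM, none between ICM and TE, and 2 each between ICM and LB EPI and between ICM and LB HYPO. In the same order edgeR called 2.45%, 0.754%, 2.91% and 2.1% of all genes. MYC was lower in ICM than in M (log2 fold change of M over ICM 6.37, SE 1.67, adjusted p = 0.0485 from edgeR), while the median of the 7 genes was -0.61 in that comparison. It was also lower in ICM than in LB EPI (-7.10, adjusted p = 0.0458 from edgeR) and LB HYPO (-8.87, adjusted p = 0.00213 from edgeR). ETV4 was lower in ICM than in LB EPI (-12.15, adjusted p = 0.00448 from edgeR), and FOSL1 than in LB HYPO (-7.03, adjusted p = 0.0173 from edgeR). The MYC call against M was lost in 13 of 15 fits without 1 sum, that against LB EPI in 10 of 11 and that against LB HYPO in none of 12.

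By edgeR no gene of these lists was called in the Sph, M against TE, EPI pair, HYPO pair or interaction comparisons, where 10, 24, 10, 7 and 10 of the 82 were under an unadjusted p of 0.05, DESeq2 called 10, 1, 1, 0 and 3, and limma 3, 2, 0, 0 and 0. In the same order, the shares of all genes were 1.13%, 0.808%, 0.156%, 0.163% and 0.0408% for edgeR, and 15.2%, 20.9%, 13.6%, 9.52% and 10.8% unadjusted. They were 9.94%, 4.11%, 5.72%, 2.32% and 3.67% for DESeq2, and 2.49%, 2.55%, 0.659%, 0.163% and 1.16% for limma. The median log2 fold change of the 82 was 0.00 between ICM and TE, where that of all genes was also 0.00, and 0.25 between Sph EPI and Sph HYPO, where that of all genes was 0.57.

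The 3 receptors were not much alike in pattern. Over the 41 embryo sums, Pearson's r of log2(CPM + 1) was 0.368 for PDGFRA and KIT, although they are neighbours in the genome, 0.324 for PDGFRA and EPHA2, and 0.116 for KIT and EPHA2. Points share embryos and lineages, so these are descriptions. Among entries with a symbol, the genes most like PDGFRA were SLC7A9 (r = 0.768), PECAM1 (0.757), GJB1 (0.701), CIDEB (0.701) and SUMF2 (0.688). PECAM1, known from endothelium, was lower in TE than in ICM (log2 fold change 9.82, SE 1.16, adjusted p = 0.000128 from edgeR) and in Sph EPI than in Sph HYPO (-12.88, SE 1.56, adjusted p = 0.00363 from edgeR), as PDGFRA was by level. With limma the Sph difference of PECAM1 was not called (adjusted p = 0.0679).

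Again among entries with a symbol, KIT was most like SLC38A6 (r = 0.770), ALG12 (0.701), ZNF584 (0.698), FGFR4 (0.695) and FBXO30 (0.689), and EPHA2 most like AKR7A2 (0.778), FCGRT (0.732), LXN (0.717), VCAN (0.716) and MDK (0.705). FGFR4 is itself a receptor tyrosine kinase, for fibroblast growth factors. Between cells of 1 type, the receptors had correlations of log2(TPM + 1) from -0.445 to 0.283. The lowest was that of KIT and EPHA2 in the 36 LB HYPO cells (Spearman's rho -0.422), which come from 5 embryos: AN was highest in EPHA2 and lowest in KIT.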

How the data were processed

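Per the study's methods, the authors trimmed paired reads (scythe, sickle) and mapped them to Sus scrofa v10.2 in HISAT2 2.1.0, kept uniquely mapped reads, counted them per Ensembl gene with HTSeq, and removed cells with few gene reads, a high mitochondrial share or an outlying t-SNE position. The authors deposited a whole-number count for each gene in each cell, with TPM values derived from these counts, and both were used as deposited. Symbols came from a gene name table that matched 11437 of 22840 entries.

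Letters in a cell's identifier gave its embryo. Where they do not mark separate embryos, p-values measure a partly technical spread. Counts were summed per embryo and lineage, leaving out 1 morula cell of no stated embryo, and tested with edgeR 4.0.16 (R 4.3.3; quasi-likelihood, TMM scaling, genes with a TPM over 1 in at least 3 cells, 14721 genes, Benjamini-Hochberg threshold 0.05, SE from the fold change and F). Genes with no count in either group stayed in the test. A log2 fold change is the first-named group over the second. The procedure was tested on simulated data. Genes well above the floor were given a set fold change there, so it does not cover sums at 0 that rest on few cells. DESeq2 1.42.0, limma 3.58.1 and other settings were alternatives. The limma fits used the mean log2(TPM + 1) of each embryo's cells, not summed counts, so their sizes are not on the edgeR scale. Intervals are exact binomial at 95%. Positive cells had a TPM over 1.

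Same-embryo sums come from the same animal, so a fit with the embryo as a block was also made. The median correlation of their deviations was 0.0484 for ICM with TE (7 embryos), 0.0205 for the lineages of LB (3 embryos) and 0.0658 for those of Sph (3 embryos). No 2 cells were identical (highest correlation 0.865). Named genes were the 3 receptors, their partners, up to 4 called genes per list and comparison, and the 5 genes with a symbol most like each receptor. The receptors and all gene lists were chosen with earlier results of these data known. Python 3.11.15 with pandas 2.3.3 and SciPy 1.17.1 was used for the rest.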

Additional observations from a re-analysis of the deposited data

Results flagged for a closer look

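In 5 of the 18 groups of 4 to 10 embryos tested, 1 embryo stood apart from the rest by Dixon's test. The test marks about 1 in 20 groups by chance when values are normally distributed, a rate that does not hold for groups with embryos tied at 0, and the gap equals the whole range by construction in PDGFRA of Sph EPI and EPHA2 of M. PDGFRA in ICM was at 0.00 on the log2(CPM + 1) scale in embryo AD, which gave 1 cell, against 6.10 or more in the other 6. PDGFRA in TE reached 7.35 in the single cell of E6-ER, against 3.18 or less in the other 9, and this cell lacked most trophectoderm markers. PDGFRA in Sph EPI was 2.62 in embryo D and 0 in the other 3. EPHA2 in TE was 5.24 in embryo AI, against 0.84 or less in the other 9, and AI also had the highest EPHA2 of ICM. EPHA2 in M was 0.0702 in embryo T, from 1 count, and 0 in the other 7.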

How the results depend on the processing

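The 30 receptor tests were repeated under 8 to 11 other settings each, which gave 297 values: 260 kept the direction and the side of the threshold, 21 newly passed it, 16 changed direction and none lost a call. The changes of direction were in tests that edgeR did not call. Their causes were not tested. Values below are log2 fold changes.

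Newly called with DESeq2 were KIT in ICM against TE (5.28), PDGFRA in LB EPI against LB HYPO (-5.07), KIT in M against TE (4.04) and EPHA2 in ICM against LB EPI (2.86). With limma on embryo means these were EPHA2 in ICM against TE (3.76), PDGFRA in LB EPI against LB HYPO (-5.03), Sph EPI against Sph HYPO (-4.57) and M against ICM (-3.32), and KIT in M against TE (3.28). With all 7 lineages in one model they were KIT (5.42) and EPHA2 (4.94) in ICM against TE. In M against TE they were KIT (4.17) and EPHA2 (-7.58, against -0.25 with limma and -0.96 under the first 4 codes). Under the first 4 codes they were PDGFRA (12.31), KIT (8.69) and EPHA2 (10.56) in ICM against TE. PDGFRA in LB EPI against LB HYPO (-8.86) and KIT in M against TE (7.18) were also called there. Leaving out cells of less certain embryo called PDGFRA in ICM against TE (7.33), which is the same fit as that without E6-ER. With the embryo as a replicate block, PDGFRA (10.48) and EPHA2 (9.00) were called in ICM against TE and KIT in Sph EPI against Sph HYPO turned to 3.55, and the block changed no other call of a receptor.

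Directions changed with limma for KIT in Sph EPI against Sph HYPO (0.54), EPHA2 in LB HYPO against Sph HYPO (-0.48) and the PDGFRA interaction (-0.46). Under the first 4 codes they changed for KIT in ICM against LB HYPO (0.60), PDGFRA in LB EPI against Sph EPI (-1.84) and the PDGFRA interaction (-2.67). Under the last 4 codes they changed for PDGFRA in M against TE (-0.28) and EPHA2 in ICM against LB HYPO (-1.08). They also changed there for EPHA2 in LB EPI against Sph EPI (-0.67) and the interactions of KIT (0.15) and EPHA2 (-1.70). Without TMM, PDGFRA in M against TE was -0.0656. With sums of at least 2 cells, ICM against LB HYPO gave 0.23 for PDGFRA, 0.20 for KIT and -0.52 for EPHA2.

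Leaving out 1 sum at a time gave 363 values, of which 340 kept direction and side. For PDGFRA the ranges were 2.97 to 7.33 in ICM against TE, -8.31 to -4.11 in LB EPI against LB HYPO, -13.89 to -5.93 in Sph EPI against Sph HYPO, -0.39 to 4.65 in M against TE, -1.19 to 0.0649 in ICM against LB HYPO, -0.54 to 10.49 in LB EPI against Sph EPI, 3.63 to 7.36 in ICM against LB EPI, 0.39 to 1.66 in LB HYPO against Sph HYPO and -1.87 to 8.64 in the interaction. For KIT they were -0.99 to 5.17 in Sph EPI against Sph HYPO, 0.94 to 7.04 in LB HYPO against Sph HYPO, -0.58 to -0.00404 in ICM against LB HYPO, 0.57 to 1.09 in ICM against LB EPI, 0.52 to 1.11 in LB EPI against Sph EPI and -6.34 to -0.17 in the interaction. For EPHA2 they were 4.02 to 9.54 in ICM against TE, -2.19 to 0.33 in LB EPI against LB HYPO, -0.00985 to 1.19 in LB EPI against Sph EPI, -1.77 to 1.09 in LB HYPO against Sph HYPO, 0.25 to 3.21 in ICM against LB HYPO, 1.82 to 3.30 in ICM against LB EPI, -2.47 to -1.04 in Sph EPI against Sph HYPO, -8.04 to -2.69 in M against TE and -0.54 to 2.15 in the interaction.

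The number of genes called ranged from 9 to 865 in ICM against TE (111 as reported), 20 to 1375 in LB EPI against LB HYPO (283), 78 to 1463 in Sph EPI against Sph HYPO (167), 38 to 1205 in M against ICM (361), 20 to 894 in M against TE (119), 123 to 1382 in ICM against LB EPI (428), 71 to 1109 in ICM against LB HYPO (309), 7 to 842 between the EPI groups (23), 17 to 341 between the HYPO groups (24) and 0 to 540 for the interaction (6). Shares of positive cells stayed within their intervals at other thresholds, except KIT in LB HYPO (100% with any count). For 17 tests of the other named genes, 62 of 214 values without 1 sum and 29 of 171 under the other settings lost the call, and no direction changed. DESeq2 gave no adjusted p for 4 receptor tests, and filterByExpr removed 2.

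With 3 to 10 embryos a group and 1 or 2 cells in many sums, a transcript missed in 1 cell sets a whole value to 0.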
